A study of Macaca mulatta with 30 samples.

Results

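The astrocyte genes described here are GFAP, AQP4, SLC1A2, SLC1A3, GJA1, ALDH1L1, GLUL, SOX9, FGFR3 and S100B, 10 genes chosen by name, all of which were found among the 15521 genes measured. Their 89 exons belong to the 156345 exons measured, 9 of them in GFAP. RNA came from cortical area 32, a medial prefrontal region, of 30 male rhesus macaques, 1 library per animal. All animals had been brought to accept 4% ethanol by an induction phase and had then drunk it by choice for more than 12 months with access for 22 h a day, so no group is free of ethanol. Low drinkers (LD, n = 10) met none of the other definitions. Binge drinkers (BD, n = 7) took at least 2 g/kg on at least 55% of days, with a blood ethanol of at least 80 mg/dl at least once a year. Heavy drinkers (HD, n = 7) took at least 3 g/kg on at least 20% of days. Very heavy drinkers (VHD, n = 6) averaged over 3 g/kg a day and passed 4 g/kg on at least 10% of days. The animals came from cohorts 7a (n = 8), 5 (n = 8), 7b (n = 5) and 4 (n = 9), whose mean ages at the end of drinking were 5.70, 7.15, 7.18 and 9.98 years. VHD animals came from cohorts 5 (n = 4) and 7a (n = 2) and LD animals from cohorts 4 (n = 4), 7a (n = 3) and 7b (n = 3), so VHD and LD met in cohort 7a alone.

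Astrocytes are glial cells that take up glutamate and potassium released by neurons, pass glutamine back to them, and wrap blood vessels with endfeet that carry water channels. They are joined into networks by gap junctions, and they raise intermediate filament proteins when they respond to injury. In a piece of cortex the RNA of astrocytes is measured together with that of neurons, oligodendrocytes and vessels, and fewer cells of a type and less RNA per cell cannot be told apart.

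The libraries held about 4392300 to 13985100 reads within exons. Values are the authors' normalized reads, scaled to a common upper quartile, and tests were run on log2 of the value plus 1. Markers of neurons (18 of 20 listed), oligodendrocytes (19 of 19), oligodendrocyte precursors (12 of 13), microglia and macrophages (17 of 18), endothelium (14 of 15) and mural cells or fibroblasts (20 of 22) were in the table, and none of these was at 0 in any library. Blood cell markers (5 of 9 in the table) summed to between 0 and 23.5 normalized reads, each of the 5 was at 0 in at least 1 library, and none was tested.

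All 10 genes were well above the filter in every library, and their levels per length of exon spanned a wide range. Per kilobase of exon, SLC1A2, the main glutamate transporter of forebrain astrocytes, was highest at 4836 ± 390 normalized reads (mean ± SD, n = 30), which ranks 19 among the 15521 genes. GFAP, the intermediate filament protein of astrocytes, followed at 4695 ± 1142 and rank 21. GLUL, glutamine synthetase, stood at 4198 ± 468 and rank 32, and SLC1A3, the glutamate transporter GLAST, at 3057 ± 243 and rank 64. GJA1, which encodes the gap junction protein connexin 43, averaged 801 ± 103 per kilobase. AQP4, the water channel of the endfeet, averaged 739 ± 127 and S100B, a calcium-binding protein, 614 ± 124. FGFR3, a fibroblast growth factor receptor, had 378 ± 73.3, ALDH1L1, a folate enzyme, 148 ± 23.8, and SOX9, a transcription factor of the glial lineage, 107 ± 21.0 at rank 6273.

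Neighbours in this order were often not separated. SLC1A2 exceeded GFAP in 19 of 30 animals and GFAP exceeded GLUL in 20 of 30, so the order of these 3 genes differs from animal to animal. GJA1 exceeded AQP4 in 23 of 30 animals, while AQP4 exceeded S100B, and ALDH1L1 exceeded SOX9, in 26 of 30 each. GLUL exceeded SLC1A3, SLC1A3 exceeded GJA1, S100B exceeded FGFR3 and FGFR3 exceeded ALDH1L1 in all 30 animals. The ranges over animals were apart at 2 steps, between SLC1A3 and GJA1 and between FGFR3 and ALDH1L1.

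The genes also differed in how much they varied between animals. GFAP had the widest spread of the 10, from 9514 normalized reads in HD replicate 3 to 23852 in LD replicate 3, a ratio of 2.51 and a coefficient of variation of 24.3%. SOX9 (highest over lowest library 2.44), FGFR3 (2.26), S100B (2.15), ALDH1L1 (1.99), AQP4 (1.93) and GJA1 (1.83) followed. The genes of glutamate handling varied least. The ratio was 1.66 for GLUL, 1.47 for SLC1A3 and 1.40 for SLC1A2, whose coefficient of variation was 8.07%. HD replicate 3, from cohort 7b, was the lowest library for GFAP, GJA1, FGFR3 and ALDH1L1, and VHD replicate 6, from cohort 5, was the highest for GLUL, SLC1A3, GJA1 and S100B and the lowest for SOX9.

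**Figure D1:**
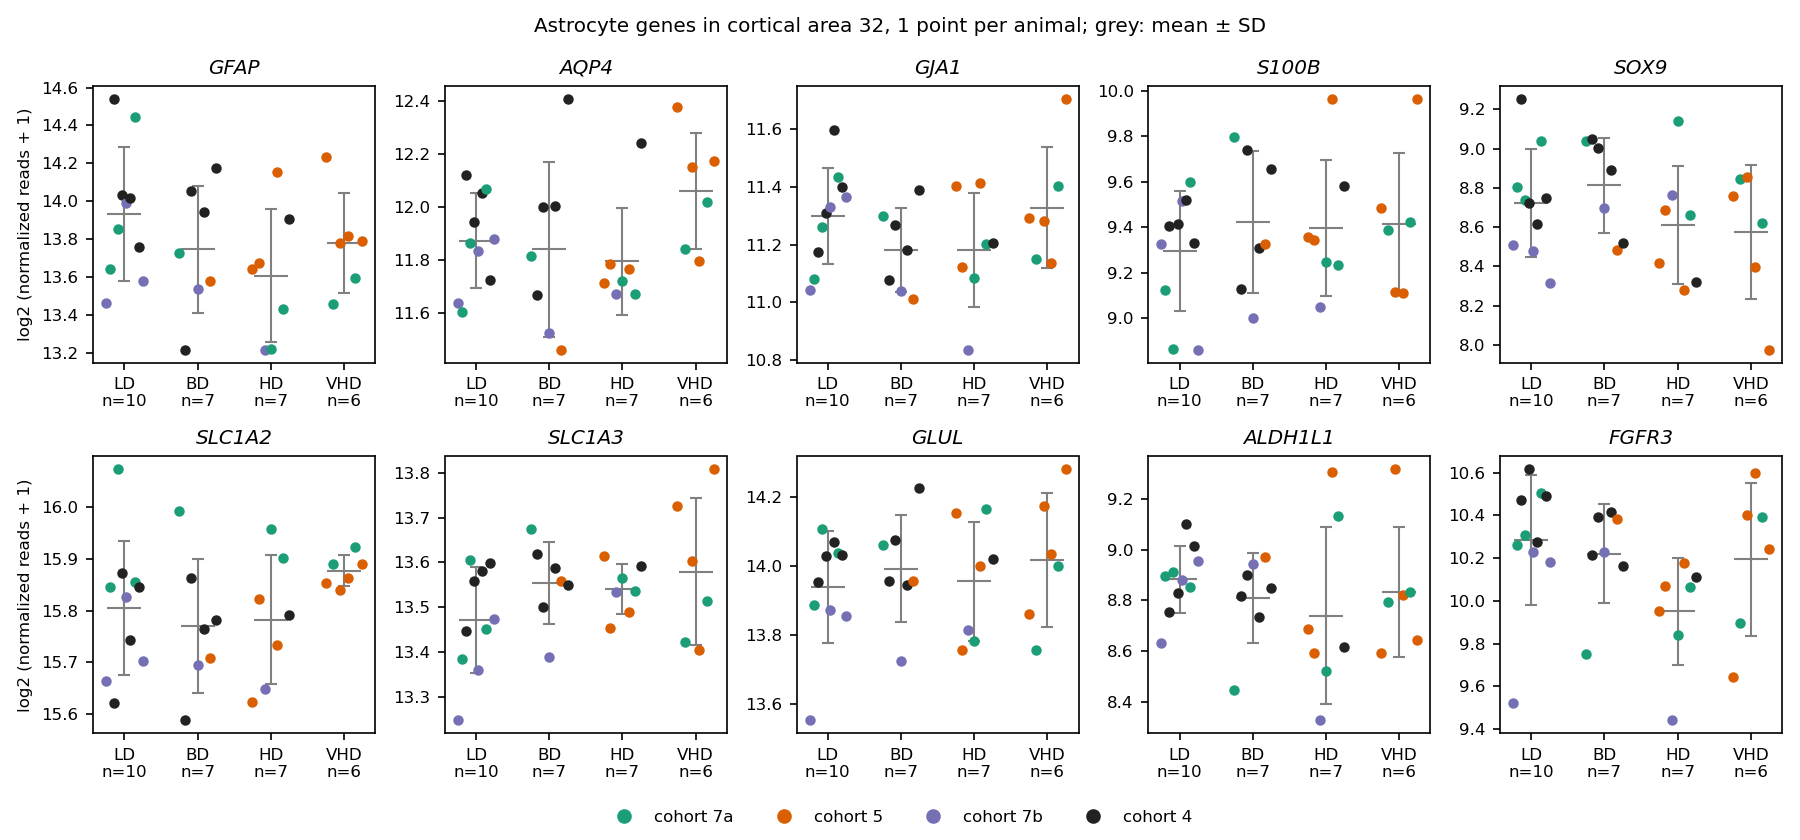
Level of each astrocyte gene (vertical axis, log2 of normalized reads plus 1, with a separate scale per gene) in the 30 animals, by drinking category from LD to VHD; each point is 1 animal, coloured by cohort, and grey marks give the mean ± SD. The 4 categories overlap for all 10 genes, and the 6 VHD animals lie close together for SLC1A2, between 58680 and 62156 normalized reads.

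The comparison of VHD with LD sets the highest against the lowest intake category, with cohort in the model. AQP4 was 0.29 ± 0.12 log2 units higher in VHD (limma estimate ± SE) and GFAP was at -0.30 ± 0.17, below LD, and neither passed the test (limma, adjusted p = 0.948 for each). Among the 10 genes 0 were called at an adjusted p under 0.05, and so were 0% of the 12935 genes tested. At an unadjusted p under 0.05 the count was 1 of the 10, AQP4, which was higher, against 453 genes or 3.50% of all tested, 1.76% of them higher. Of the 10 estimates 4 were above 0 and 6 below, with a median of -0.02 where the median of all tested genes was -0.000328 and 49.9% of them were above 0.

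GFAP and AQP4 had the estimates farthest from 0 among the 10 genes in this comparison. GFAP ranged over 11271 to 19263 normalized reads (median 14110) in VHD animals and over 11304 to 23852 (median 15544) in LD animals. AQP4 ranged over 3554 to 5315 (median 4346) in VHD and over 3112 to 4450 (median 3749) in LD. For both genes the groups overlap, and for AQP4 the upper end of VHD lies above the highest LD animal. Within cohort 7a, the 2 VHD animals had 11271 and 12391 normalized reads of GFAP, against 12787, 14814 and 22293 in the 3 LD animals. There the GFAP difference was -0.45 log2 units, and how many of all tested genes keep so few animals apart was not counted. AQP4 in the same animals was 3670 and 4152 in VHD, against 3112, 3725 and 4293 in LD. Its difference was 0.09 within cohort 7a, and it was 0.19 with no cohort term. For GFAP it was -0.15 with no cohort term and -0.18 without LD replicate 8. Of 19 oligodendrocyte markers 14 had estimates above 0 in VHD (median 0.18), with summed levels of 5434 to 14660 normalized reads in VHD and 5538 to 13810 in LD. All 20 tested markers of mural cells and fibroblasts had estimates below 0 (median -0.27), with sums of 7477 to 15231 in VHD and 8698 to 21938 in LD. With the oligodendrocyte level in the model AQP4 was at 0.25 and GFAP at -0.36, and the part of mural cells and fibroblasts was not tested. GJA1 differed by -0.04 ± 0.11, with 2248 to 3341 normalized reads in VHD and 2109 to 3097 in LD. S100B differed by 0.04 ± 0.17, with 552 to 999 in VHD and 464 to 775 in LD.

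The glutamate genes differed little between VHD and LD. SLC1A2 ranged over 58680 to 62156 normalized reads (median 60158) in VHD and over 50419 to 68960 (median 58491) in LD, and differed by 0.04 with a 95% interval of -0.09 to 0.17. SLC1A3 ranged over 10836 to 14343 (median 12068) in VHD and over 9724 to 12468 (median 11290) in LD, with a difference of 0.07 and an interval of -0.07 to 0.21. GLUL had a median of 16589 in VHD and 16295 in LD, with an interval of -0.19 to 0.19. The intervals of these 3 genes are the narrowest of the 10 in this comparison. FGFR3, with 798 to 1549 normalized reads in VHD and 734 to 1570 in LD, was at -0.21 ± 0.15. That estimate was -0.08 with library numbers grouped into 4 sets in the model, -0.12 without VHD replicate 1 and -0.32 without VHD replicate 5. ALDH1L1, with 386 to 637 in VHD and 396 to 548 in LD, was at -0.16 ± 0.14. SOX9, with 250 to 462 in VHD and 317 to 610 in LD, was at -0.06 ± 0.16.

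In HD, GFAP and FGFR3 had the estimates farthest from 0 of the 10 genes over the 3 comparisons with LD. GFAP was at -0.41 ± 0.14 log2 units in HD relative to LD (limma, adjusted p = 0.317) and FGFR3 at -0.40 ± 0.13 (adjusted p = 0.314), so neither passed the test. GFAP ranged over 9514 to 18265 normalized reads (median 12803) in HD and over 11304 to 23852 (median 15544) in LD. Of the 7 HD animals, 3 were under 11304, the lowest LD value. FGFR3 ranged over 694 to 1159 (median 1070) in HD and over 734 to 1570 (median 1254) in LD. Within cohort 7a, FGFR3 was at 914 and 1070 in the 2 HD animals, against 1227, 1268 and 1451 in the 3 LD animals. GFAP in those animals was at 9560 and 11055 in HD, against 12787, 14814 and 22293 in LD. The estimates in cohort 7a were -0.65 for GFAP and -0.41 for FGFR3, from these 2 HD and 3 LD animals. How many of all tested genes separate so few animals was not counted. These 2 genes, both lower, were those of the 10 with an unadjusted p under 0.05, where 6.68% of all tested genes were lower at that threshold and 12.5% passed it in either direction. Of the 10 estimates 2 were above 0, with a median of -0.04 against 0.00267 for all tested genes, of which 50.5% were above 0.

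Values of the libraries moved with both results. With library numbers grouped into 4 sets and added to the model, the FGFR3 difference between HD and LD was -0.17 and that of GFAP -0.34. FGFR3 rose with the library number across the 30 libraries, as given among the correlations. The HD libraries had numbers 2, 3, 6, 7, 9, 22 and 29, and the LD libraries 8 and then 13 to 31. Category and library number are thus partly confounded in this comparison. All 19 oligodendrocyte markers had estimates below 0 in HD (median -0.27), with summed levels of 4957 to 8360 normalized reads in HD and 5538 to 13810 in LD. Of 20 tested markers of mural cells and fibroblasts, 18 had estimates below 0 (median -0.77), with sums of 6209 to 20947 in HD and 8698 to 21938 in LD. With the oligodendrocyte level in the model GFAP was at -0.30 and FGFR3 at -0.41. The part of mural cells and fibroblasts in these results was not tested.

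None of the 10 genes passed the test in BD against LD or over the trend. GFAP was at -0.30 ± 0.13 log2 units in BD relative to LD (limma, adjusted p = 0.999), with 9527 to 18519 normalized reads (median 13584) in BD and 11304 to 23852 (median 15544) in LD. It was the 1 gene of the 10 with an unadjusted p under 0.05, where 3.05% of all tested genes passed that threshold and 1.48% were lower. The other 9 genes lay between -0.16 ± 0.08 for GJA1 and 0.11 ± 0.12 for SOX9. Over the ordered categories, scored with 1 step from each to the next, GFAP changed by -0.13 ± 0.06 per step (adjusted p = 0.745) and FGFR3 by -0.10 ± 0.05 (adjusted p = 0.745). The GFAP slope was -0.08 without LD replicate 8, and the FGFR3 slope was -0.04 with the library sets in the model. The GFAP medians were 15544, 13584, 12803 and 14110 normalized reads in LD, BD, HD and VHD, which is not a steady order. GFAP was again the 1 gene with an unadjusted p under 0.05, against 6.18% of all tested genes and 3.06% with a negative slope. Because BD, HD and VHD were each set against the same LD animals, the 3 negative GFAP estimates are not independent of each other. A slope that differs between cohorts was called for 0 of 12935 genes by limma, with 290 at an unadjusted p under 0.05, among them AQP4 and GJA1 (adjusted p = 1.0 for both).

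**Figure D2:**
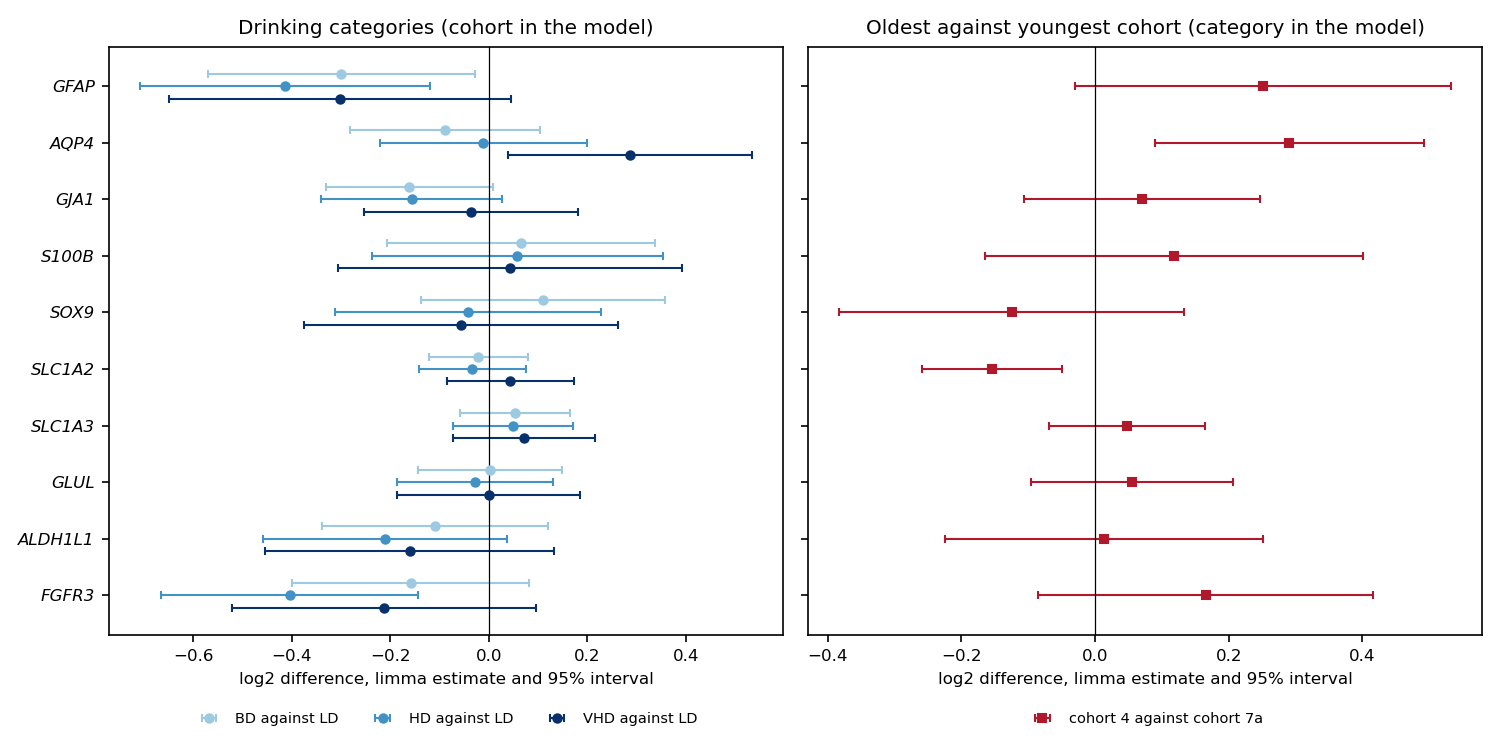
Difference of each astrocyte gene on the log2 scale (horizontal axis, limma estimate with its 95% interval) for BD, HD and VHD, each against LD (left), and for cohort 4 against cohort 7a (right). The GFAP estimates for BD, HD and VHD lie at -0.30, -0.41 and -0.30, AQP4 lies above 0 in VHD at 0.29, and the intervals shown are not adjusted for the number of genes tested.

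Cohort 4 held the oldest animals and cohort 7a the youngest, with category in the model. AQP4 was 0.29 ± 0.10 log2 units higher in cohort 4 (limma, adjusted p = 0.325), GFAP 0.25 ± 0.14 higher (adjusted p = 0.597) and SLC1A2 was at -0.15 ± 0.05 (adjusted p = 0.305), so none passed the test. AQP4 ranged over 3255 to 5432 normalized reads (median 4109) in cohort 4 and over 3112 to 4293 (median 3637) in cohort 7a. GFAP ranged over 9527 to 23852 (median 16603) in cohort 4 and over 9560 to 22293 (median 12589) in cohort 7a. SLC1A2 ranged over 49246 to 59998 (median 56312) in cohort 4 and over 58912 to 68960 (median 61673) in cohort 7a. The SLC1A2 ranges overlap only narrowly, the highest of cohort 4 lying just above the lowest of cohort 7a. In the 10 genes 1 was higher and 1 lower at an unadjusted p under 0.05, where 4.94% and 4.21% of all tested genes were, 9.15% in all.

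Among LD animals only, SLC1A2 was again at -0.15 in cohort 4 relative to cohort 7a, while AQP4 differed by 0.12 and GFAP by 0.11. All 19 oligodendrocyte markers had estimates above 0 in cohort 4 (median 0.84), 16 of them at an unadjusted p under 0.05, and their summed levels were 5497 to 25364 normalized reads in cohort 4 and 5070 to 8478 in cohort 7a. With the oligodendrocyte level in the model, the cohort difference was 0.02 for GFAP, 0.11 for AQP4 and -0.19 for SLC1A2. Cohort and age cannot be told apart here.

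Over all 4 cohorts, 6 of the 10 genes had an unadjusted p under 0.05 (GFAP, AQP4, SLC1A2, GLUL, SOX9 and FGFR3), where 8.04% of all tested genes did. None was called by limma, the smallest adjusted p being 0.322 for SLC1A2. DESeq2 on the recovered reads called 68 genes, among them SLC1A2 with an adjusted p of 0.0409. Of the 19 oligodendrocyte markers 15 had an unadjusted p under 0.05 in the same limma test. With their level in the model the adjusted p was 0.899 for GFAP, 0.923 for AQP4 and 0.687 for SLC1A2, where it was 0.473, 0.459 and 0.322 without it. An adjusted p depends on all tested genes, of which 783 had an unadjusted p under 0.05 with that level and 1040 without it. Between cohorts 4 and 7a the SLC1A2 difference was -0.19 log2 units with that level and -0.15 without it. SLC1A2 had medians of 61673, 58301, 53006 and 56312 normalized reads in cohorts 7a, 5, 7b and 4. In cohort 7a, which had the highest median, all 8 animals were at 58912 or above. In cohort 7b, which had the lowest, all 5 were at 58099 or below, so these cohorts do not overlap. The share of all tested genes that keep these cohorts apart was not counted. GLUL was lowest in cohort 7b, with 12004, 14394 and 14987 as the lowest, median and highest value, against medians of 16608, 16580 and 16730 in cohorts 7a, 5 and 4.

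The 10 genes did not vary as 1 block across animals. Of the 45 pairs, 34 had a positive Pearson r, with a median of 0.24 over all pairs. Among all tested genes, the share with a positive r ran from 44.1% for SOX9 to 52.5% for GJA1 over the 10 genes. In 9 pairs the correlation passed a two-sided permutation test adjusted over the 45 pairs, all 9 positive. The share of pairs among all tested genes that would pass was not counted. On values freed of category and cohort 8 passed, 7 of these 9 and 1 negative pair, GJA1 and SOX9 (r = -0.53, adjusted permutation p = 0.0218). The pairs that no longer passed there were GFAP with GJA1 (r = 0.33, adjusted permutation p = 0.261) and GLUL with FGFR3 (r = 0.30, adjusted permutation p = 0.309). On the same freed values GJA1 rose with log2 of the reads per library (r = 0.52) and SOX9 fell with it (r = -0.86). The part of sequencing depth in the GJA1 and SOX9 pair was not tested. With the 2 animals farthest from the median of the first gene left out, 5 of the 9 passed.

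GFAP and AQP4 were the most closely correlated pair (r = 0.66, rho = 0.71, adjusted permutation p = 0.0039, n = 30). Without the 2 farthest animals r was again 0.66, and within cohorts 7a, 5 and 4 it was 0.64, 0.58 and 0.68. AQP4 ranked 16 among 12934 other genes by its correlation with GFAP. GJA1 and GLUL followed (r = 0.64, rho = 0.60, adjusted permutation p = 0.0039, 0.56 without the 2 animals), with 0.57, 0.68 and 0.60 in cohorts 7a, 5 and 4. SLC1A3 and GLUL, which act in sequence in the clearance of glutamate, had r = 0.62 and rho = 0.52 (adjusted permutation p = 0.0039). That value was 0.40 without the 2 animals and -0.06 within cohort 4, so it rests partly on few animals. GLUL was the gene with the highest correlation with SLC1A3 of all 12934 others.

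The remaining 6 called pairs were ALDH1L1 and FGFR3 (r = 0.58), GJA1 and S100B (0.56), AQP4 and GJA1 (0.55), GFAP and GJA1 (0.51), GFAP and S100B (0.49), and GLUL and FGFR3 (0.46), with adjusted permutation p between 0.00979 and 0.0491 and r between 0.35 and 0.58 without the 2 animals. The last missed the threshold by rho (0.35). SLC1A2 was in no called pair, its 9 correlations having a median of 0.13, although it is the most abundant of the 10 per length. SOX9 was in none of the 9 either, and was positively correlated with 3 of the 9 other genes. The lowest value of the 45 was -0.38, between GJA1 and SOX9, the pair that passed once category and cohort were removed.

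**Figure D3:**
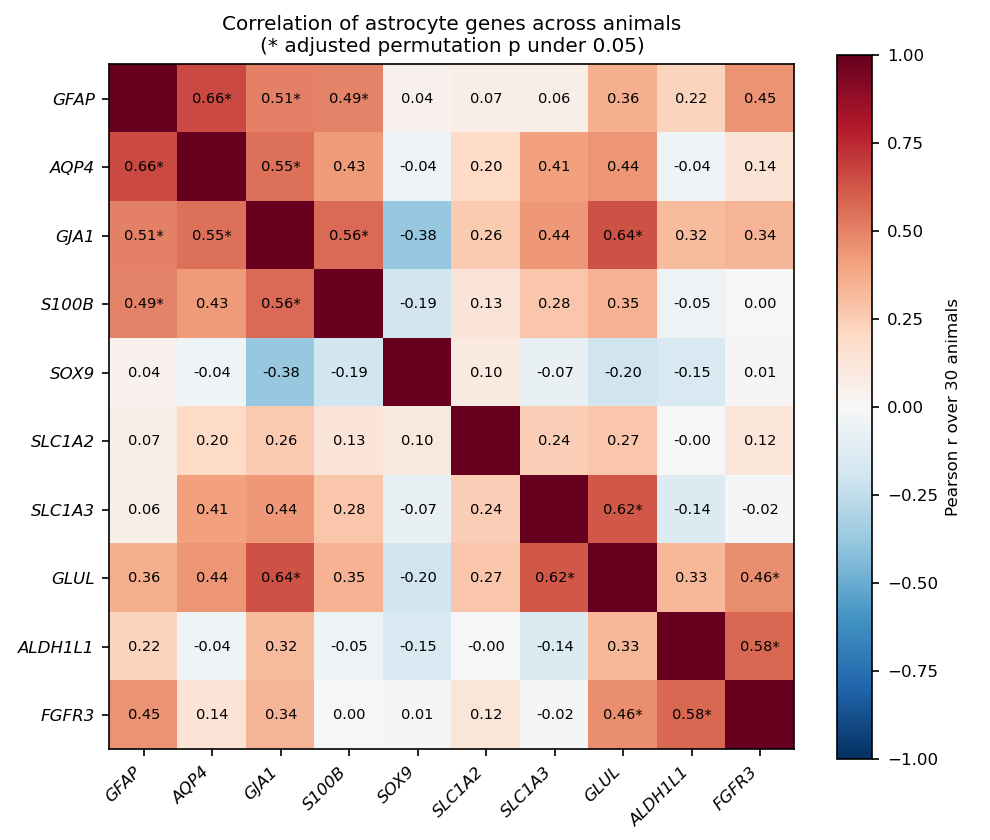
Pearson r between the astrocyte genes over 30 animals, on log2 of normalized reads plus 1; both axes list the 10 genes, colour runs from -1 to 1, and a star marks an adjusted permutation p under 0.05. GFAP, AQP4, GJA1 and S100B form the upper left block with r of 0.43 to 0.66, while SLC1A2 and SOX9 have no starred pair.

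Each gene was also set beside 12 measures of its library: depth, genes detected, library number, mean levels of 7 marker lists, of other astrocyte markers and of reactive astrocyte genes. Of these 120 relations 14 passed a permutation test adjusted over the 120. The share of all tested genes with as extreme an r was counted for depth, library number, oligodendrocyte markers and neuron markers. For the other measures it was not counted. GFAP and AQP4 rose with the oligodendrocyte markers (r = 0.62 and 0.67, rho = 0.72 and 0.75, adjusted permutation p = 0.0052 and 0.00216, n = 30). Left without the 2 farthest animals, r was 0.66 and 0.68. For GFAP it was 0.65, 0.06 and 0.78 within cohorts 7a, 5 and 4, and for AQP4 0.64, 0.38 and 0.76. Among all tested genes, 0.928% had an r at or above that of GFAP and 0.719% at or above that of AQP4.

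GFAP and AQP4 fell with the neuron markers (r = -0.60 and -0.57, rho = -0.59 and -0.54, adjusted permutation p = 0.0078 and 0.0105, n = 30), and GJA1 did so with r = -0.50 (adjusted permutation p = 0.0413). Without the 2 farthest animals these were -0.50, -0.48 and -0.51, and for GJA1 rho was -0.43 and did not pass. Within cohorts 7a, 5 and 4 the r was -0.37, -0.73 and -0.57 for GFAP, -0.13, -0.69 and -0.56 for AQP4, and -0.20, -0.55 and -0.44 for GJA1. Only 6 of the 12935 tested genes had an r at or below that of GFAP, and 12 at or below that of AQP4. The mean log2 level of the neuron markers, on which these r rest, ran from 9.77 to 10.16. Their sum, a different measure, ran from 74226 to 85647 normalized reads. The oligodendrocyte level was entered only in the models of categories and cohorts, as given above, and the neuron level in none. The cause of the relations of GFAP, AQP4 and GJA1 with these markers was not tested.

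SOX9 fell with depth (r = -0.83, rho = -0.85, adjusted permutation p = 0.0006, n = 30), with r of -0.90, -0.76 and -0.92 within cohorts 7a, 5 and 4 and -0.79 without the 2 farthest animals. Of all tested genes 0.387% had an r at or below this. SOX9 was at 610 normalized reads in LD replicate 3, the shallowest library with 4392300 reads, and over the 30 libraries it had 264 to 563 reads. FGFR3 rose with the library number (r = 0.57, rho = 0.53, adjusted permutation p = 0.0105, n = 30), at or above which 1.49% of tested genes lay. Within cohorts 7a, 5 and 4 that r was 0.86, 0.64 and -0.24. ALDH1L1 rose with the microglia and macrophage markers (r = 0.57, adjusted permutation p = 0.0105), but rho was 0.47 and did not pass, and r was 0.41 without the 2 animals.

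Other astrocyte markers moved with some of the 10 genes. GLUL and FGFR3 each had r = 0.71 with their mean level (adjusted permutation p = 0.0006 and 0.0008, n = 30) and GFAP 0.59 (adjusted permutation p = 0.0078), which were 0.60, 0.50 and 0.53 without the 2 farthest animals. Within cohort 4 the value for GLUL was -0.14 and within cohort 5 that for GFAP was -0.06. The mean of the reactive astrocyte genes rose with S100B (r = 0.59, adjusted permutation p = 0.00893) and with GFAP (r = 0.55, adjusted permutation p = 0.0161), at 0.50 and 0.54 without the 2 animals. Within cohorts 7a, 5 and 4 the r was 0.82, 0.48 and 0.12 for S100B, and 0.28, 0.45 and 0.69 for GFAP.

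**Figure D4:**
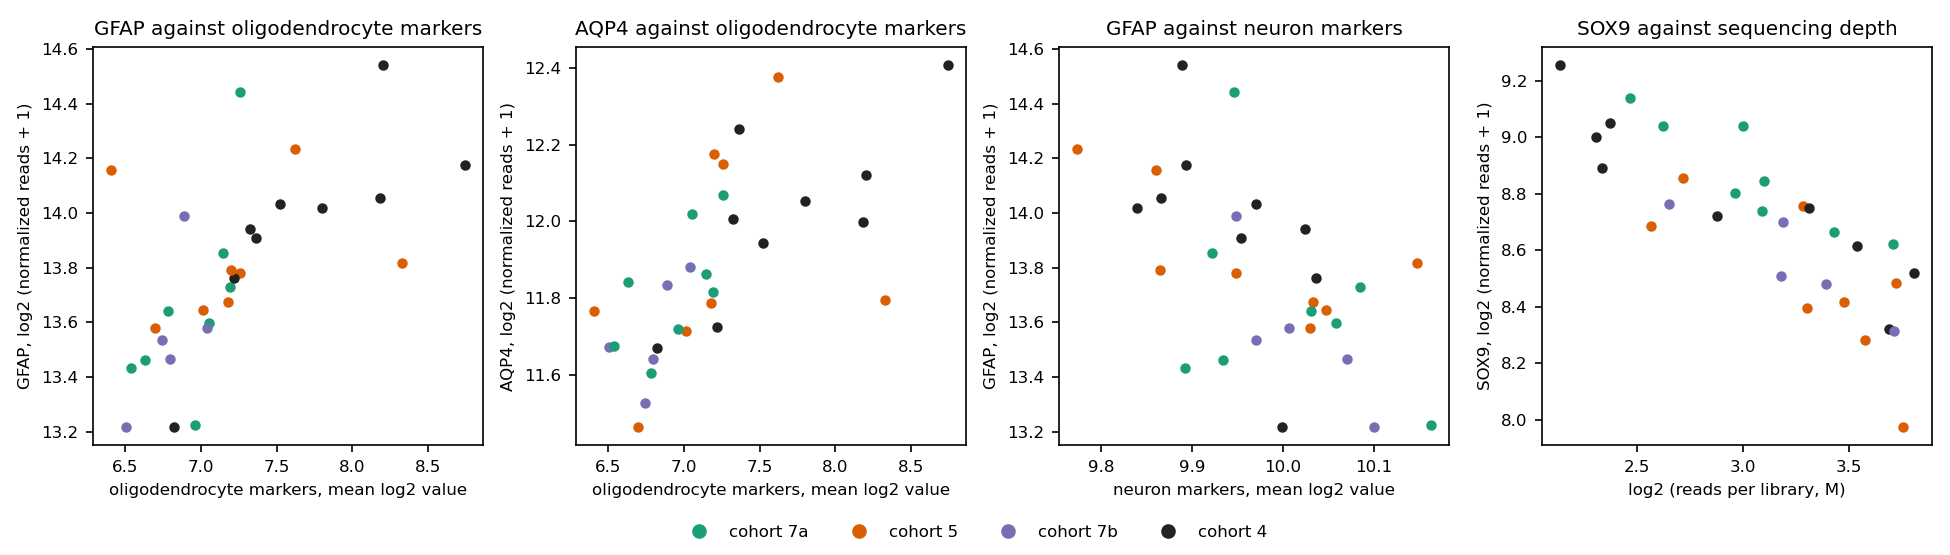
GFAP and AQP4 (vertical axes, log2 of normalized reads plus 1) against the mean log2 level of 19 oligodendrocyte markers, GFAP against the mean log2 level of 18 neuron markers, and SOX9 against log2 of the reads per library in megareads (M); each point is 1 animal, coloured by cohort. GFAP and AQP4 climb with the oligodendrocyte level (r = 0.62 and 0.67) and SOX9 falls with depth (r = -0.83) over the 30 animals.

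The genes most like each astrocyte gene across the 30 animals were not, for the most part, the other 9. CD38, which encodes an enzyme that breaks down NAD, was nearest to both GFAP (r = 0.81) and AQP4 (r = 0.80). ENOSF1 (0.77) was also among the 3 nearest to GFAP. AQP4 was followed by the integrin gene ITGB8 and the oligodendrocyte gene ERMN (0.78 each). GJA1 was nearest to SPG20 (0.77), SRSF1 (0.74) and NEK7 (0.74), and S100B to EPS8 (0.76), CNN3 (0.75) and CD59 (0.71). SLC1A2 was nearest to ALDH1A1 (0.76), then TRPS1 (0.65) and ACSL6 (0.64). SLC1A3 was nearest to GLUL (0.62), FIGF (0.62) and DZIP1 (0.62). GLUL was nearest to SMOX (0.76), the astrocyte aldolase gene ALDOC (0.70) and RHOBTB3 (0.68). ALDH1L1 was nearest to PPP2R4 (0.77), TMEM101 (0.75) and DDX39A (0.69). FGFR3 was nearest to NACC2 (0.87) and RPUSD1 (0.87). SOX9 had the nearest neighbours of all 10, with ATP1B2 (0.91), a sodium pump subunit of glia, ARID1A (0.89) and SHANK1 (0.89). Those 3 genes also fell with depth, at r = -0.83, -0.85 and -0.83.

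GFAP was described by exon as well, whose mRNA is known from human and rodent brain to be spliced to several ends. Its 9 exons lie on chromosome 17 between positions 52771327 and 52781966, numbered here from low to high coordinate. Neither the genome build nor the strand and annotation is given in the sources used here. Exon 1, of 1764 bases (chr17:52771327-52773090), held 40.3 ± 2.01% of the normalized reads of GFAP (mean ± SD, n = 30) and 57.2% of its exon length. Exon 9, of 525 bases (chr17:52781442-52781966), held 13.0 ± 0.915%. The 7 exons between them, of 44 to 221 bases, held 4.68% to 9.56% each. The short exons had more reads per kilobase than exon 1, and whether a read across a junction was counted in both of its exons is not stated.

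GFAP exon usage was tested for VHD against LD, over the trend and between cohorts 4 and 7a, and not for BD or HD against LD. The exon 1 share was 40.2 ± 2.302%, 40.0 ± 1.89%, 40.8 ± 1.81% and 40.2 ± 2.27% over LD, BD, HD and VHD animals. The exon 9 share was 13.2 ± 0.654%, 12.5 ± 0.712%, 12.6 ± 1.04% and 13.4 ± 1.16% in the same order. The exon 3 share was 4.51 ± 0.232%, 4.97 ± 0.368%, 4.74 ± 0.301% and 4.58 ± 0.303%, and the exon 7 share 5.92 ± 0.335%, 5.77 ± 0.283%, 6.32 ± 0.464% and 5.95 ± 0.228%, again in that order. Relative to the other exons of the gene, the 9 exons differed between VHD and LD by -0.05 to 0.05 log2 units, with 0 of 9 called (limma diffSplice, smallest adjusted p = 1.0) where 0.0980% of 118342 tested exons were. The 3 with the smallest p were exon 1 (0.05), exon 3 (0.05) and exon 5 (-0.05). Over the trend 0 of 9 were called, where 0.164% of exons were, and the same 3 exons had the smallest p at 0.02, 0.02 and -0.03 per step. Between cohorts 4 and 7a 0 of 9 were called, where 0.270% were, with exon 6 at -0.12, exon 7 at -0.08 and exon 2 at 0.05. The exon 6 share was 7.43 ± 0.336% in cohort 4 (n = 9) and 8.03 ± 0.391% in cohort 7a (n = 8), and with 1 variance per exon it was the only GFAP exon with an unadjusted p under 0.05 in that comparison (limma, adjusted p = 0.913), where 5.47% of all tested exons were under it.

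**Figure D5:**
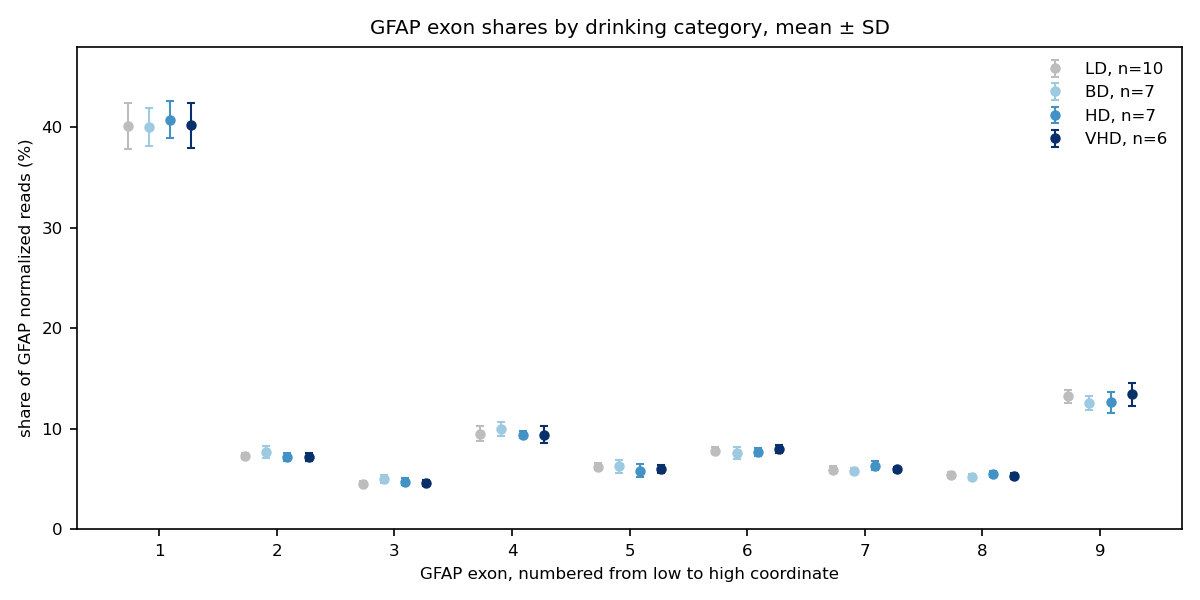
Share of the GFAP normalized reads in each of its 9 exons (vertical axis, percent; horizontal axis, exons numbered from low to high coordinate) for LD, BD, HD and VHD, as mean ± SD over animals. Exon 1 holds about 40% in each category, from 40.0% in BD to 40.8% in HD, and the SD bars of the 4 categories overlap at each of the 9 exons.

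Of the other exons of the 10 genes 1 was called, exon 5 of AQP4 (chr18:15321802-15321896, 95 bases), chosen here after its values were seen. Relative to the other AQP4 exons it was at -2.43 log2 units in VHD against LD (limma diffSplice, adjusted p = 0.0122) and at -0.74 per step of the trend (adjusted p = 0.0140). Its level was 0 to 3.78 normalized reads in the 6 VHD animals, 3 of them at 0, and 0 to 21.6 (median 6.05) in the 10 LD animals, 2 of them at 0. An exon was tested if it reached 5 normalized reads in 6 or more libraries. No VHD library reached 5 here, so the exon was tested only through LD, HD and BD libraries. A low level in VHD was thus favoured by the filter, and the adjusted p cannot count as a test of it. The medians were 6.05, 0, 2.86 and 0.69 over LD, BD, HD and VHD, which is not a steady order, and the highest library was BD replicate 7 at 23.4 (35 reads). AQP4 as a whole had at least 1850 reads in every animal, so this exon carried a very small part of them. With 4 instead of 1 added before the log2 the difference was -1.45 in VHD and -0.45 per step, and with 1 variance per exon the adjusted p was 1.0 in both comparisons. On simulated data for VHD against LD, 54.8% of the 434 exons called by diffSplice had not been changed, so this call is given as a description only. The call in VHD was lost without LD replicate 2 (-2.13), LD replicate 8 (-2.18) or VHD replicate 5 (-2.12).

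The genes that work beside the 10 were also counted, with 0 called in any list and any of the comparisons by limma. Of 29 other astrocyte markers tested (of 34 listed), 8 had estimates above 0 in VHD against LD and 21 below, with a median of -0.08. ACSBG1, a fatty acid enzyme, was the 1 of them with an unadjusted p under 0.05, at -0.22 ± 0.09, and MLC1, a membrane protein of the endfeet, was at -0.22 ± 0.13. MLC1 ranged over 1181 to 2018 normalized reads in VHD and over 1314 to 1898 in LD. In HD against LD 5 of the 29 were above 0 and 24 below (median -0.12). At an unadjusted p under 0.05, 5 of the 29 were lower and 0 higher. Of all tested genes 6.68% were lower at that threshold and 12.5% passed it in either direction.

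Of 27 reactive astrocyte genes tested (of 32), 16 were above 0 in VHD and 11 below, with a median of 0.01 and 0 at an unadjusted p under 0.05. SERPINA3, a protease inhibitor, was at -0.68 ± 0.43, with 12.6 to 39.7 normalized reads in VHD and 20.0 to 97.2 in LD. The complement gene C3 was at -0.19 ± 0.12 and SOCS3, an inhibitor of cytokine signalling, at 0.26 ± 0.21. Of 13 other intermediate filament genes tested, 5 were above 0 and 8 below.

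Around the glutamate transporters, 16 genes of the glutamate and glutamine cycle were tested, 6 above 0 and 10 below in VHD (median -0.03). Pyruvate carboxylase, PC, was at -0.28 ± 0.13 and the glutaminase gene GLS2 at -0.35 ± 0.19. Of 9 tested genes that anchor AQP4 or form the vessel laminin, 4 were above 0 and 5 below, with LAMB2 at -0.33 ± 0.18. Of 13 connexins and partners, 7 were above 0 and 6 below, with GJB6, the other astrocyte connexin, at 0.19 ± 0.19. The 21 astrocyte fate factors split 13 to 8, with ZBTB20 at -0.23 ± 0.12 and NOTCH2 at -0.17 ± 0.10. Of 17 fibroblast growth factor genes 9 were above 0 and 8 below, with FRS2, an adaptor of the receptors, at 0.18 ± 0.10. Of 9 genes of the S100 family and receptor 2 were above 0 and 7 below (median -0.18), with S100A6 at -0.41 ± 0.27. Of 17 folate enzymes 6 were above 0 and 11 below (median -0.07), with GART at -0.28 ± 0.11.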

How the data were processed

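Area 32 RNA of 30 animals was sequenced from stranded libraries depleted of ribosomal RNA, per the labels' protocols. The authors deposited a normalized signal per gene and per exon, scaled to a common upper quartile; CASAVA, FastQC, STAR 2.3.0e and edgeR are named in the submitters' processing notes. Build, annotation, read counter and its strand setting are not stated in the sources used here. From the smallest step of each library, whole reads were recovered for 100% of values (within 0.01).

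The 12935 genes that reached 10 normalized reads in 6 or more libraries were tested with limma 3.58.1 in R 4.3.3 on log2 of the value plus 1, with category and cohort in the model and Benjamini-Hochberg adjustment at 0.05. EdgeR 4.0.16 and DESeq2 1.42.0 were run on the recovered reads. EdgeR called 0 genes in each comparison. DESeq2 called 0 in VHD, 5 in HD and 0 in BD, each against LD, 0 over the trend, 68 over cohorts and 31 between cohorts 4 and 7a. Exon usage came from limma diffSplice on the 118342 exons that reached 5 normalized reads in 6 or more libraries. Correlations used 100000 permutations (scipy 1.17.1). The limma gene tests, exon usage in VHD against LD and the permutation correlation were tested on simulated data. There 54.8% of the 434 calls of the exon test were false, more than its threshold of 0.05 allows. EdgeR, DESeq2, the slope by cohort and the other exon comparisons were not tested on simulated data.

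The members and lists were chosen with earlier results of these data known. Genes named beside the 10 are those of each list with the smallest p in VHD against LD, at most 4, and the 3 nearest by correlation; some of these are not reported here. No sequence is shown. Nothing in the labels pairs animals across categories.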

Additional observations from a re-analysis of the deposited data

Results flagged for a closer look

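In 40 groups of a gene and a category, 5 had a highest or lowest animal set apart from the others by a gap above Dixon's limit, where chance flags about 5% of groups. AQP4 in HD stood at 4841 normalized reads in replicate 7, the 1 HD animal of cohort 4, and at 3530 in the next animal. ALDH1L1 in VHD stood at 636.6 in replicate 3, with the next animal at 454.8. FGFR3 was low in 2 groups, at 861.1 in BD replicate 1, against 1147 in the next animal, and at 734.3 in LD replicate 1, against 1162. These 2 were library numbers 4 and 8, and FGFR3 lay between 694 and 1075 in all of library numbers 1 to 8. GLUL was also low in LD replicate 1, at 12004 against 14811 in the next LD animal. LD replicate 1 thus stands apart for 2 of the 10 genes.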

How the results depend on the processing

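No paired analysis was possible because the replicate numbers were given in accession order and pair no animals. Of 2932 values of the genes and exons under other settings, 2839 kept their direction and their side of the threshold, 83 changed sign, 9 lost a call and 1 gained one. No difference of GFAP or FGFR3 as a gene changed sign under them, and those that did lie near 0. With library sets in the model GLUL was at 0.0513 in VHD, 0.0697 in HD and 0.0188 over the trend, SLC1A2 at 0.0219 in BD, ALDH1L1 at -0.0976 between cohorts, and GFAP exon 5 at 0.00629 in VHD and 0.000628 over the trend. With no cohort term GJA1 was at 0.0283 and GLUL at 0.0785 in VHD, and GLUL at 0.0156 in HD and 0.01999 over the trend. With DESeq2 GLUL was at 0.000591 in VHD and -0.000821 in BD, and ALDH1L1 at -0.000626 between cohorts. With edgeR GLUL was at -0.000223 in BD and ALDH1L1 at -0.001600. Array weights gave 0.0139 for AQP4 in HD, -0.0549 for GLUL in BD and -0.00980 for ALDH1L1 between cohorts, and median-of-ratios scaling -0.000490 for GLUL in BD. With the oligodendrocyte level in the model AQP4 was at 0.0721 in HD. Within cohort 7a, VHD was at -0.0178 for SLC1A2, -0.0124 for SLC1A3 and 0.0162 for GJA1, and HD at 0.00465 for SLC1A2 and 0.0401 for SOX9. Within cohort 4, AQP4 was at 0.0599 in BD.

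With 1 animal left out at a time, the values that changed sign ranged in VHD from -0.0997 to 0.00752 (GJA1), -0.0384 to 0.0807 (GLUL), -0.119 to 0.0170 (SOX9) and -0.0523 to 0.110 (S100B). In HD they ranged from -0.0729 to 0.0422 (AQP4), -0.0734 to 0.00971 (GLUL), -0.135 to 0.0807 (SOX9) and -0.0199 to 0.110 (S100B). In BD they ranged from -0.0451 to 0.00558 (SLC1A2), -0.0279 to 0.0187 (GLUL) and -0.0383 to 0.121 (S100B). Over the trend they ranged from -0.0118 to 0.0163 (GLUL), -0.0400 to 0.0121 (SOX9) and -0.0160 to 0.0397 (S100B), and between cohorts 4 and 7a from -0.0831 to 0.0720 (ALDH1L1). AQP4 exon 5 lost its call with 1 variance per exon (-2.43 in VHD, -0.74 over the trend) and without single animals, its range being -3.00 to -2.12 in VHD and -0.87 to -0.64 over the trend. The trend call was lost without LD replicate 2, LD replicate 8, VHD replicate 5 or HD replicate 7. With a minimum of 20 normalized reads that exon is not tested. SLC1A2 over cohorts gained a call with DESeq2 (adjusted p = 0.0409, between 0.0409 and 0.687 over all settings). The alternatives for this exon, and those with depth or the oligodendrocyte level, were chosen after seeing the data.

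The count of all genes called by limma was 0 in each comparison. In HD against LD it was 1 with no cohort term and 5 with DESeq2. Over cohorts it was 1 with library sets and 68 with DESeq2. Between cohorts 4 and 7a it was 15 with library sets, 26 with no category term and 31 with DESeq2, and 0 to 7 with 1 animal left out (7 without BD replicate 1, 1 without LD replicate 9). Of the 9 called correlations 5 passed without the 2 farthest animals. The cause was not tested. ALDH1L1 had 208 to 824 reads per library and SOX9 had 264 to 563, and whether such counts limit the results for these genes was not tested.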
